A study of Mus musculus with 23 samples.

Results

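The 39 Hox genes of the mouse lie in 4 clusters, Hoxa, Hoxb, Hoxc and Hoxd, and 95 regions of open chromatin were assigned to them out of 118102 regions found in maxillary prominence mesenchyme. The regions come from ATAC-seq, in which a transposase cuts DNA and tags it with adapters where chromatin is open. They were made by merging the peaks of 9 lists wherever these overlapped by 1 bp or more. A region was counted as a Hox region when its nearest protein-coding gene, inside the gene body or at most 100 kb from its nearer end, was a Hox gene. The maxillary prominence is the part of the embryonic face that forms the upper jaw and the palate. Wild-type C57BL/6 embryos of 3 ages were compared, E10.5 and E11.5 and E12.5 (E for embryonic day), after Dispase treatment had freed the mesenchyme of its ectoderm. All 3 groups share this genotype, strain and preparation. Each stage had 3 biological samples with 1 peak list each, made from 1 to 4 library runs per sample and 23 runs in all, and how many embryos went into a sample is not stated in these sources.

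Hox genes encode homeodomain transcription factors that give cells their position along the head to tail axis. Within a cluster the genes lie in the order in which they are used along the body, from paralogue group 1 at the anterior end to group 13 at the posterior end, and the silent ones are known for being held closed by Polycomb proteins. Neural crest cells of the first pharyngeal arch, which build the maxilla, are known as Hox-negative, whereas the crest of more posterior arches uses anterior Hox genes. The first arch uses another homeobox family, the Dlx genes, and these are given here for comparison.

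The promoters below show the sequence at the Hox gene starts that the results turn on. They are RefSeq sequences of GRCm38.p6 (the mm10 build), each from 250 bases before to 50 bases after a start and written 5′ to 3′ along the gene, and capitals mark bases that lay under peaks of 3 or more lists. Such sequences were at hand for 22 of the 39 Hox genes, with 24 promoters. The first 3 are the ones that were called most often, by 6 lists for Hoxd1 at chr2:74762730-74763029 (plus strand), by 4 lists for Hoxd11 at chr2:74682073-74682372 (plus strand) and by the 3 E12.5 lists for Hoxc4 at chr15:103034145-103034444 (plus strand).
Hoxd1: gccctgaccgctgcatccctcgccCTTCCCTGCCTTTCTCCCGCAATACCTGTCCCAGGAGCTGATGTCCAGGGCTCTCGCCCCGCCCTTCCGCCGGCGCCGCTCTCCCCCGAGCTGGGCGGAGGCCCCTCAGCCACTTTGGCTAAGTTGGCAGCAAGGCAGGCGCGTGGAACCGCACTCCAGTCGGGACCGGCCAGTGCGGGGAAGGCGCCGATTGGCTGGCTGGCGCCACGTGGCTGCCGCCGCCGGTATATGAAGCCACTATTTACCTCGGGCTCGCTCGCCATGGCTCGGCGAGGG
Hoxd11: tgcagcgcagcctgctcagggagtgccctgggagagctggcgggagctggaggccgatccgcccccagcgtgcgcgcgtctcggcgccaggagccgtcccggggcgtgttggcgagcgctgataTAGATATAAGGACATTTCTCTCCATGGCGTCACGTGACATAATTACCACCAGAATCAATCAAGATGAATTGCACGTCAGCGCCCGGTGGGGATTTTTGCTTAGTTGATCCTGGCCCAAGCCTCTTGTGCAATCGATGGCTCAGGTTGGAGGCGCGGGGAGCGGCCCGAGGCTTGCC
Hoxc4: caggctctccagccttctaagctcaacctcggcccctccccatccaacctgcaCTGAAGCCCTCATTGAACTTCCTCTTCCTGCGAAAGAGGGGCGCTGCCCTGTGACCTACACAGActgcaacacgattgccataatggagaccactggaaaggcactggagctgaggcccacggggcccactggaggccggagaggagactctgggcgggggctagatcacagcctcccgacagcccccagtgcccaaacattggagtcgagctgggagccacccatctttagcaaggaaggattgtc
The next 2 belong to the posterior genes Hoxd13 at chr2:74667975-74668274 (plus strand) and Hoxa13 at chr6:52260831-52261130 (minus strand), whose often-called regions nearest the start lay mostly or wholly inside the gene, past the 3′ end of the promoter. The last belongs to Hoxa5 at chr6:52204538-52204837 (minus strand), a central gene that held no region in any list.
Hoxd13: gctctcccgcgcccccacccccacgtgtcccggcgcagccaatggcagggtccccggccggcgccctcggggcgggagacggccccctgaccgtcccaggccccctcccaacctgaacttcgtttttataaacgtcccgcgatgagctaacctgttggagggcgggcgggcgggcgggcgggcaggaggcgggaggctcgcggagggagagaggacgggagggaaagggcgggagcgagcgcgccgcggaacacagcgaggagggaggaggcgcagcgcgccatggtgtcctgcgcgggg
Hoxa13: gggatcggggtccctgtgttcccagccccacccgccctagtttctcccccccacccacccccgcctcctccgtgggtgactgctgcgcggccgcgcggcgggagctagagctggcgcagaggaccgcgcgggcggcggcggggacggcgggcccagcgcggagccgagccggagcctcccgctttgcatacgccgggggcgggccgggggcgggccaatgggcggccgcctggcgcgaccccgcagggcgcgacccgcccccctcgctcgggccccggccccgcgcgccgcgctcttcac
Hoxa5: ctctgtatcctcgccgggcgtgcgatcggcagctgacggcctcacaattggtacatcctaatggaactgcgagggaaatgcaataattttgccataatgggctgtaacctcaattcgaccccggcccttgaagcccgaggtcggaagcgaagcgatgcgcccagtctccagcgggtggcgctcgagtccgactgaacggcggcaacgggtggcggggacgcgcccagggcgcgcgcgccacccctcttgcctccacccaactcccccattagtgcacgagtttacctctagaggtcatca
The often-called Hoxd1 promoter and the uncalled Hoxa5 promoter both held 29 CG dinucleotides, and the Hoxa13 promoter, called by 0 lists, held 45.

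The 9 lists differed in length and kind, and this bears on every count. Peaks numbered 16057, 19095 and 14886 in the E10.5 lists, then 5682, 24908 and 41457 at E11.5, then 26584, 50361 and 19139 at E12.5. The lists give no read counts, so the depth is unknown and the 3 lists per stage are the only measure of error. The E11.5 lists stood apart. Their highest fold enrichment, a value of the authors' peak caller, reached 17.9 to 20.4, where the E10.5 lists reached 5.83 to 7.47 and the E12.5 lists 6.62 to 14.7, and E11.5 sample 1 was the shortest list. Of all known gene starts, E11.5 samples 2 and 3 had 53.4% and 54.6% under a peak, whereas the other 7 lists had 18.7% to 37.5%. The peak names in E11.5 samples 1 and 2 also carry another format than those in the other 7 lists. The part of these differences in the Hox results at E11.5 was not tested.

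The Hox clusters took a smaller share of the peaks at E11.5 than at either other stage. Hox regions called numbered 17, 25 and 17 in the E10.5 lists, 1, 8 and 23 in the E11.5 lists and 22, 35 and 20 in the E12.5 lists. As a share of all regions called in the same list this was 0.112%, 0.134% and 0.123% at E10.5, then 0.0182%, 0.0326% and 0.0603% at E11.5, then 0.0868%, 0.0718% and 0.109% at E12.5. The ranges of the 3 stages did not overlap, with E10.5 highest and E11.5 lowest, although E12.5 sample 3 lay close to the lowest E10.5 list. The means were 0.123% ± 0.0111 at E10.5, then 0.0370% ± 0.0214 at E11.5, then 0.0893% ± 0.0188 at E12.5 (SD, n = 3 each). The order of E10.5 and E12.5 turned when only peaks with a −log10 q of at least 5 were kept, with a mean share of 0.0717% at E12.5 against 0.0430% at E10.5, while E11.5 was again lowest at 0.0101%. E11.5 sample 3 called 23 Hox regions, a number within the 20 to 35 of the E12.5 lists, but from a list of 38163 called regions. Against the number expected from the list's tendency to call regions and from how many lists called each region, Hox calls stood at 1.40, 1.65 and 1.55 times expectation at E10.5, then at 0.284, 0.398 and 0.739 times at E11.5, then at 1.06, 0.885 and 1.35 times at E12.5. These are values of whole tissue, in which strong opening in few cells and weak opening in many cells cannot be told apart.

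**Figure D1:**
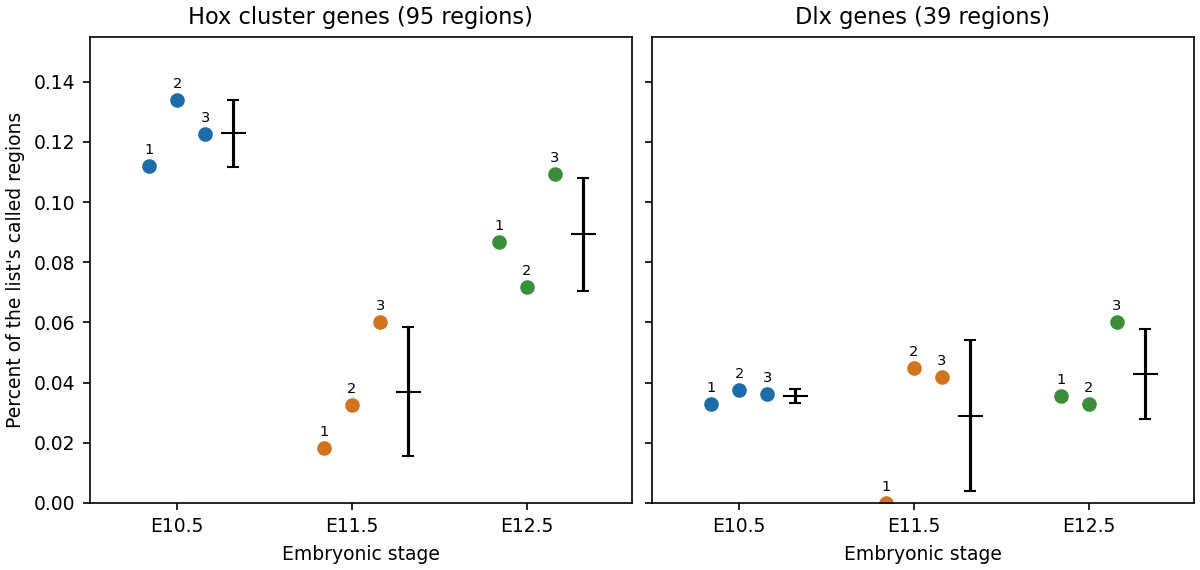
Percent of each list's called regions that were assigned to Hox genes (left) and to Dlx genes (right), by embryonic stage, with numbered points for the samples and bars for the mean and SD of 3 lists. The Hox points lie between 0.112% and 0.134% at E10.5, then between 0.0182% and 0.0603% at E11.5, then between 0.0718% and 0.109% at E12.5, while the Dlx points of the 3 stages overlap.

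The Dlx genes, which pattern the first arch, did not show this order. Dlx regions took 0.0355% ± 0.00236 of a list at E10.5, then 0.0289% ± 0.0251 at E11.5, then 0.0428% ± 0.0150 at E12.5 (SD, n = 3 each), and the ranges overlapped. E11.5 samples 2 and 3 called 11 and 16 Dlx regions, within the 9 to 16 of the E12.5 lists, and E11.5 sample 1 called 0. Hox genes had fewer regions for their number, 2.44 per gene against 6.50 per Dlx gene and 4.95 per protein-coding gene in all. Each region went to its nearest gene, and each Hox cluster packs 9 to 11 genes into 96.9 to 174 kb. Regions per gene thus depend on the spacing of genes and do not measure how open the clusters were.

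Most Hox regions were seen once. A single list called 67 of the 95 Hox regions, or 70.5%, against 68.8% of all regions. Recurrent regions, called by 4 or more lists, numbered 13 among the Hox regions, or 13.7%, against 10.1% of all regions, so the Hox share was near that of the whole set. The most any Hox region reached was 7 lists. Of all regions, 1.19% were called by 8 lists and 1.02% by 9, shares so small that 0 of 95 Hox regions is near them. The Dlx genes reached 8 lists.

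Hox peaks ranked low to middling in strength within their own lists. The median fold of the Hox peaks fell at percentile 35.4, 32.1 and 19.9 of the list at E10.5, then 12.7, 18.9 and 37.7 at E11.5, then 46.4, 44.0 and 55.4 at E12.5. Ranks from lists of such different length cannot be compared between stages, so neither a change nor its absence is read from them. The highest fold of any Hox peak was 4.94, at Hoxd1 in E11.5 sample 2, where it stood at percentile 48.4 of a list that reached 20.4. Hoxd13 held the strongest Hox peak of E12.5 sample 3, with a fold of 4.13 at percentile 98.0, and Hoxa3 that of E12.5 sample 2, with a fold of 3.53 at percentile 98.1.

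Peaks covered more of the cluster spans, intervals between genes included, than of gene bodies in general in 7 of the 9 lists. The coverage of the 4 clusters was 0.882%, 1.65% and 0.747% at E10.5, then 0.0386%, 0.352% and 0.909% at E11.5, then 0.458%, 1.41% and 1.13% at E12.5. All protein-coding gene bodies had 0.304%, 0.488% and 0.213% at E10.5, then 0.120%, 0.653% and 0.540% at E11.5, then 0.163%, 0.680% and 0.328% at E12.5. The exceptions were E11.5 samples 1 and 2, in which the clusters were covered less than gene bodies. These are unlike measures, since whole spans stand against gene bodies alone. Gene starts lie close together in the clusters, and their spacing was not allowed for. The coverage therefore does not show that the clusters were more open than other genes.

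The 4 clusters held between 17 and 31 regions each. Hoxa (chromosome 6, 11 genes) held 24 regions, Hoxb (chr11:96194316-96368254, 10 genes) 31, Hoxc (chr15:102921131-103036856, 9 genes) 23 and Hoxd (chr2:74668225-74765142, 9 genes) 17. Hoxd had the smallest share of regions called by 1 list, 58.8% against 71.0% to 75% in the other clusters. Each cluster took its smallest mean share of called regions at E11.5. Hoxb went lowest relative to E10.5, with 0.00660% ± 0.00816 at E11.5 against 0.0397% ± 0.00588 at E10.5 (SD, n = 3 each), and its 3 E11.5 lists called 0, 1 and 6 of its regions, against 5, 8 and 6 at E10.5. By these means Hoxa kept the most, with 0.0145% ± 0.00323 at E11.5 against 0.0273% ± 0.00134 at E10.5 (SD, n = 3 each). Its highest E11.5 share, 0.0182%, was 1 call in the short list of sample 1, where Hoxc had 0 calls. In E11.5 samples 2 and 3 Hoxa took 0.0122% and 0.0131%, and Hoxc 0.0122% and 0.0183%. The E11.5 and E10.5 lists did not overlap in the share of Hoxa, Hoxb or Hoxd, though for Hoxd they nearly touched, at 0.0131% in the highest E11.5 list against 0.0132% in the lowest E10.5 list. They overlapped for Hoxc.

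**Figure D2:**
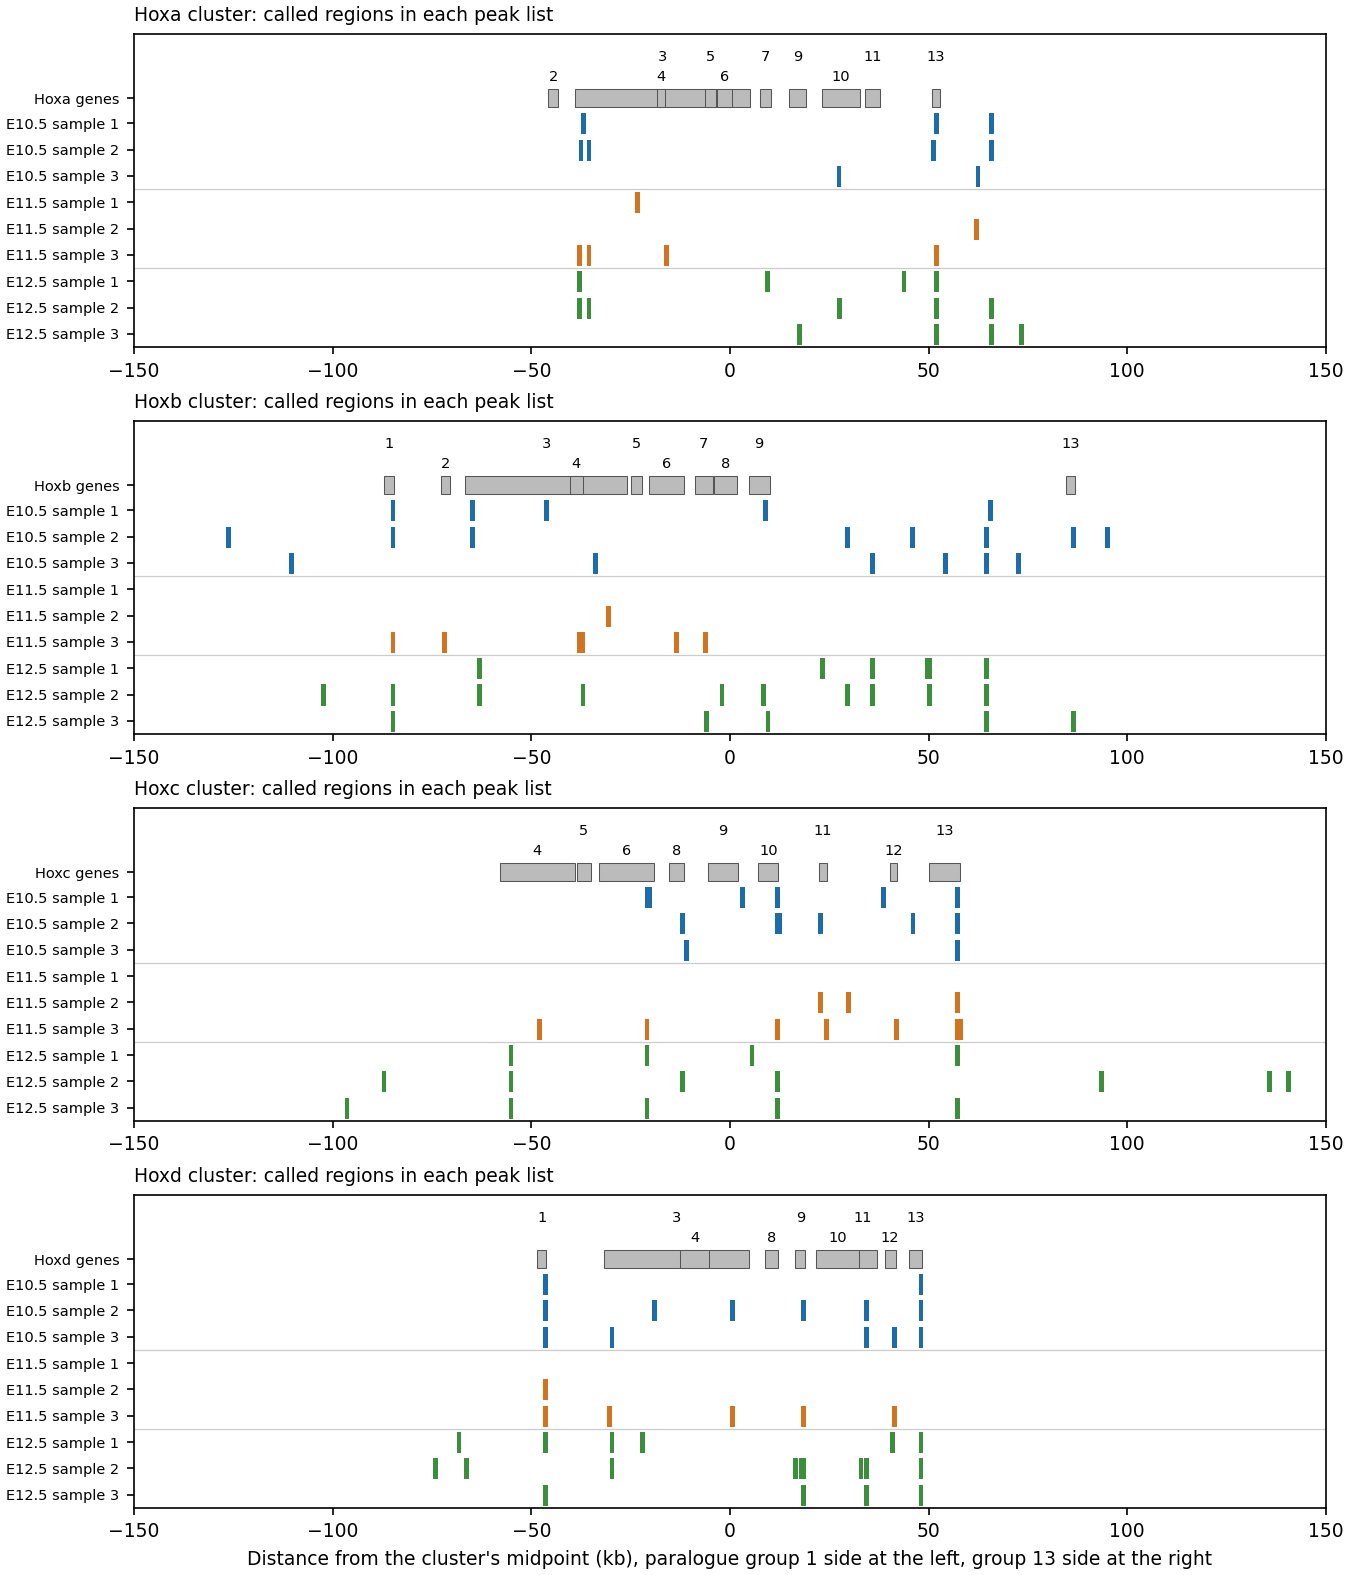
Called regions of the Hox genes reported here along each cluster, one row per peak list, against the distance from the cluster's midpoint in kb, with gene bodies in grey and their paralogue group numbers above and every region drawn at a minimum width so that short ones show. Columns of calls stand at Hoxb1 and Hoxd1 and at Hoxa13, Hoxc13 and Hoxd13, and few calls lie between groups 4 and 8.

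Along the clusters, the calls gathered at both ends and thinned in the middle. The 8 anterior genes (groups 1 to 3) had 32 regions and 7.38 calls per gene, the 15 central genes (groups 4 to 8) had 15 regions and 1.47 calls per gene, and the 16 posterior genes (groups 9 to 13) had 48 regions and 5.44 calls per gene. Groups 1 and 13 were level at 11 calls per gene. Group 5 had 0 regions in any of its 3 genes. These are sums over genes of unequal length and spacing: a gene at a cluster's end also receives the regions outside the cluster, which held 22 of the calls. Central calls numbered 2, 1 and 1 in the E10.5 lists, 0, 0 and 6 in the E11.5 lists and 3, 5 and 4 in the E12.5 lists. Anterior calls in the same lists were 6, 9 and 6, then 1, 4 and 9, then 8, 12 and 4, and posterior calls were 9, 15 and 10, then 0, 4 and 8, then 11, 18 and 12. The gap in the middle was there in each E10.5 and E12.5 list. It was less clear at E11.5, where sample 1 had only 1 call in all. In E11.5 sample 3 the 15 central genes had 6 calls and the 16 posterior genes 8. At E11.5 the posterior calls lay below those of both other stages in all 3 lists, while the anterior calls overlapped with both.

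The group 1 genes, which act in the hindbrain and its crest and respond early to retinoic acid, include Hoxb1 and Hoxd1, which each held a recurrent region. Hoxd1 had the most often called, chr2:74762628-74763653, which spans the start shown above and was called by 7 lists, all but E11.5 sample 1 and E12.5 sample 2. The Hoxd1 peaks stood at percentile 44.5 to 87.7 of their lists. Hoxb1 was called at chr11:96365697-96366447, over its start, by 5 lists.

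Group 3 had calls inside long gene bodies rather than at starts, and group 2 had 1 call in all, inside the short gene Hoxb2. Hoxa2, the gene that marks second arch crest, held 0 regions, and 0 lists had a peak within 1 kb of its start. Hoxa3, Hoxb3 and Hoxd3, which are used in the third arch and behind it, held 6, 5 and 5 regions, each called by at most 3 lists, and 0 lists had a peak within 1 kb of their starts. Hoxa3 had 1, 2 and 0 regions called in E12.5 lists, 1, 0 and 3 at E11.5, with 1, 2 and 0 at E10.5. Hoxd3 had 2, 1 and 0 at E12.5, 0, 0 and 2 at E11.5, with 0, 2 and 1 at E10.5. These lists overlapped between stages for both genes.

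The central genes, which pattern the trunk, were close to empty. Of the 9 Hox genes that held no region, 7 are central, namely Hoxa4, Hoxa5, Hoxa6, Hoxb5, Hoxc5, Hoxd4 and Hoxd8, and the others are Hoxa2 and Hoxd10. Hoxa4, Hoxa5 and Hoxa6 lie inside the annotated body of Hoxa3, and Hoxd4 inside that of Hoxd3. A region was given to the gene that held it or to the nearest one, and the peak of 1 list within 1 kb of the Hoxa4 start lay outside Hoxa4 but inside the body of Hoxa3, so it counts under Hoxa3. Among the central genes, Hoxc4 and Hoxc6 held the regions that were called most often. Hoxc4 was called at chr15:103033851-103034356, at a promoter within its annotated body, in all 3 E12.5 lists and in 0 lists of E11.5 or E10.5. Hoxc6 was called at chr15:102999637-103000092, inside the gene, by 4 lists spread over the 3 stages.

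The posterior genes, which pattern limbs, tail and genital tubercle, held 8 of the 13 recurrent regions. Hoxc13, which also acts in hair and nails, was called at chr15:102921431-102922062, 300 bases into the gene, by 7 lists, all but E11.5 sample 1 and E12.5 sample 2. Hoxc13 had 1, 3 and 1 regions called in E12.5 lists, 0, 1 and 2 at E11.5, with 1, 1 and 1 at E10.5. Hoxa13 was called inside its gene at chr6:52259844-52260241 by 5 lists and beyond the cluster at chr6:52273896-52274197, a distance of 13016 bp, by 4 lists. Its regions called numbered 1, 2 and 3 in E12.5 lists, 0, 1 and 1 at E11.5, with 2, 2 and 1 at E10.5.

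Hoxd13, Hoxb13 and Hoxb9 were the posterior genes in which the E11.5 lists did not overlap with those of either other stage. Hoxd13 held 1 region, chr2:74668201-74669021, which overlaps the gene's start and was called by all 3 E12.5 lists, by 0 E11.5 lists and by all 3 E10.5 lists. Its strongest peak per list had a fold of 4.16, 3.07 and 4.13 in the E12.5 samples and of 3.50, 3.16 and 2.67 in the E10.5 samples. Hoxb13 held 8 regions, the most of any Hox gene, 6 of them in the long interval between Hoxb13 and Hoxb9 at more than 12 kb from the gene. It had 3, 2 and 2 regions called in E12.5 lists, 0, 0 and 0 at E11.5, with 1, 3 and 3 at E10.5. Its recurrent region, chr11:96216398-96217025, lay 19788 bp from the gene and was called by all 3 E12.5 lists, 0 E11.5 lists and 2 E10.5 lists. Hoxb9, across the same interval, had 2, 3 and 1 regions called in E12.5 lists, 0, 0 and 0 at E11.5, with 1, 2 and 1 at E10.5. In the short list of E11.5 sample 1 only 0.263 calls were expected at Hoxb13 and 0.149 at Hoxb9, so its 0 calls say little. Over all clusters, the regions between Hox genes gave 3, 4 and 4 calls at E10.5, then 0, 1 and 0 at E11.5, then 7, 4 and 1 at E12.5.

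Other posterior genes were called at or near their starts by up to 5 lists. Hoxc10 was called at chr15:102966821-102967348 by 5 lists, with 1, 1 and 1 regions called in E12.5 lists, 0, 0 and 1 at E11.5, with 1, 2 and 0 at E10.5. Hoxc11 and Hoxc12 held 3 regions each, called by at most 2 lists. Hoxd11 was called at the second of its promoters, chr2:74682074-74682568, by 2 E12.5 lists, 0 E11.5 lists and 2 E10.5 lists, and 0 lists called its other promoter. Hoxd9 was called at chr2:74697937-74698412 by 4 lists, with 0, 3 and 1 regions called in E12.5 lists, 0, 0 and 1 at E11.5, with 0, 1 and 0 at E10.5.

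**Figure D3:**
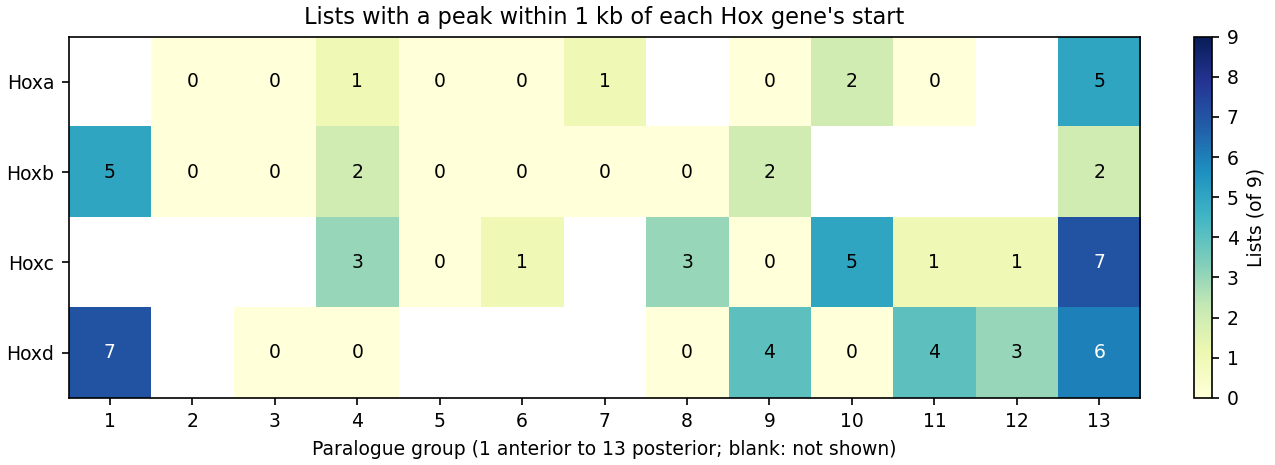
Number of the 9 lists with a peak within 1 kb of the start of each Hox gene reported here, by cluster (rows) and paralogue group (columns). Hoxb1 and Hoxd1 have 4 or more lists and so do 3 of the 4 group 13 genes, while groups 2, 3, 5 and 6 hold values of 0 or 1.

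Hox gene starts were called less often than all starts in 7 of the 9 lists and more often in those of E12.5 samples 1 and 3, a difference that was not tested. A peak of 4 or more lists lay within 1 kb of the start of 9 of the 39 Hox genes, against 40.4% of the 17291 genes with a known start. Among them were Hoxd1 and Hoxc13 with 7 lists, Hoxd13 with 6, Hoxb1, Hoxa13 and Hoxc10 with 5, and Hoxd11 and Hoxd9 with 4. A start with no peak in any list was that of 18 of the 39 Hox genes, or 46.2%, against 34.7% of all genes. Among the 13 recurrent Hox regions, 9 lay within 1 kb of a Hox start, 2 inside a gene body, 1 between genes and 1 outside the cluster.

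The gap between Hox starts and all starts was widest at E11.5 and was not seen in each E12.5 list. Hox starts under a peak numbered 8, 9 and 8 of 39 in the E10.5 lists, 0, 2 and 11 in the E11.5 lists and 8, 11 and 12 in the E12.5 lists. This was 20.5%, 23.1% and 20.5% at E10.5, against 33.4%, 37.5% and 28.8% of all starts. At E11.5 it was 0%, 5.13% and 28.2%, against 23.9%, 53.4% and 54.6% of all starts. At E12.5 it was 20.5%, 28.2% and 30.8%, against 18.7%, 35.9% and 27.1% of all starts, so that Hox starts stood above all starts in 2 of the 3 E12.5 lists and below in the third. The E11.5 value rests on 1 list, since E11.5 sample 3 held 11 of the 13 calls at Hox starts.

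**Figure D4:**
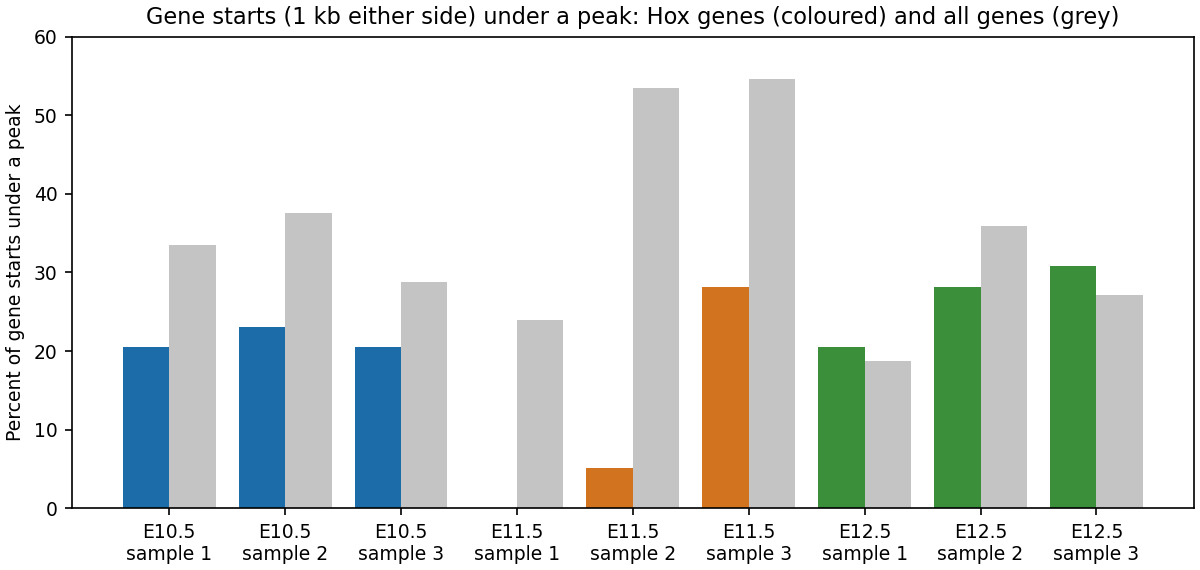
Percent of gene starts with a peak within 1 kb, in each list, for the 39 Hox genes (coloured by stage) and for all protein-coding genes with a known start (grey). Hox starts reach 20.5% to 23.1% at E10.5, then 0% to 28.2% at E11.5, then 20.5% to 30.8% at E12.5, and stand above the grey bar in E12.5 samples 1 and 3 only.

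Hox promoters were CpG-rich about as often as promoters in general. CpG-rich promoters, with a GC content of at least 55% and a ratio of observed to expected CG of at least 0.65, made up 9 of the 24 Hox promoters, or 37.5%, against 38.4% of 21045 promoters in all. Over the whole set, CpG-rich promoters were called often, with 39.8% to 51.8% of them under a peak at E10.5, then 35.3% to 78.1% at E11.5, then 18.9% to 39.5% at E12.5 per list. Of the 24 Hox promoters 6 were called by a list and 18 by none, against 11374 of the 21045 promoters called by a list and 9671 by none. The 18 had a median of 14 CG dinucleotides, where all never-called promoters had a median of 4. The motif TGATNNAT, bound by Hox proteins with Pbx partners, occurred on either strand in 4 Hox promoters, or 16.7%, against 7.36% of all, namely those of Hoxa2, Hoxb1, Hoxb8 and Hoxd11. The Meis motif CTGTCA was in 2 Hox promoters, or 8.33%, against 18.3% of all. The letters of the retinoic acid receptor element (AGGTCA, 5 bases of any kind, AGGTCA) and of the CTCF core (CCANNAG followed directly by NNGGC) were in 0 Hox promoters, against 0.00475% and 2.37% of all. No overlap between these motifs was removed, and a match is a description of the letters only.

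Between stages, few Hox regions were called by all lists of one stage and none of the other. For E12.5 against E10.5, 1 of 80 Hox regions was gained, the one at Hoxc4, where 0.629% of all regions were gained, and 0 were lost, where 0.403% were. For E11.5 against E10.5, 0 of 63 were gained, where 1.12% of all were, and 1 was lost, that of Hoxd13, where 0.26% were. For E12.5 against E11.5, 4 of 71 were gained, among them those at Hoxb13, Hoxc4 and Hoxd13, where 0.63% of all were, and 0 were lost, where 1.38% were. The last 2 comparisons share the E11.5 lists.

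Counted per gene over the 30 Hox genes with a region, Hoxc4 had more regions called in every E12.5 list than in any E10.5 list, where 5.8% of all genes did, and 0 Hox genes had fewer, where 0.83% did. Hoxb9, Hoxb13 and Hoxd13 had fewer in every E11.5 list than in any E10.5 list, where 0.464% of all genes did, and 0 had more, where 2.33% did. The same 3 genes had more in every E12.5 list than in any E11.5 list, where 2.51% did, and 0 had fewer, where 2.85% did. With 3 lists against 3, no exact test of a single gene can give a two-sided p below 0.1.

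The gene test found 0 Hox genes changed in any comparison. It compared calls with expected calls, per gene and list, by limma with Benjamini-Hochberg adjustment over 7330 genes, and 8 Hox genes had the 5 regions it needed, among them Hoxa3, Hoxa13, Hoxb3, Hoxb9, Hoxb13, Hoxc13 and Hoxd3. Over all genes, it called 0.0136% as more and 0% as fewer for E12.5 against E10.5, 0.164% and 0.0136% for E11.5 against E10.5, and 1.12% and 2.02% for E12.5 against E11.5. At an unadjusted p under 0.05 in limma the Hox genes numbered 1 of 8 for E12.5 against E10.5, where 8.76% of all genes passed. They numbered 3 of 8 for E11.5 against E10.5, where 9.85% passed, and 1 of 8 for E12.5 against E11.5, where 17.3% passed.

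The nearest to the threshold was Hoxb13 at E11.5. Its residual, which is calls minus expected calls in units of their expected SD, differed by -2.94 ± 0.851 between E11.5 and E10.5 (SE, n = 3 lists each, limma, adjusted p = 0.131). The residual was lower in 3 of 3 E11.5 lists, in which 0.263, 1.68 and 2.65 calls were expected, so sample 1 adds little. Between E12.5 and E11.5 it differed by 1.77 ± 0.851 (SE, limma, adjusted p = 0.261). The Hoxb9 residual differed by -1.996 ± 0.829 between E11.5 and E10.5 (SE, limma, adjusted p = 0.388). Every region of Hoxb13 and Hoxb9 was called only in E10.5 or E12.5 lists. Both genes thus met the 5-region minimum only through stages in which they were high. Hoxb3 gave -1.95 ± 0.838 between E11.5 and E10.5 (SE, limma, adjusted p = 0.395) and -1.93 ± 0.838 between E12.5 and E10.5 (SE, limma, adjusted p = 0.516), from 1, 1 and 0 regions called in E12.5 lists, 0, 1 and 0 at E11.5, with 2, 1 and 1 at E10.5. Over the 8 Hox genes the median difference was -0.71 for E12.5 against E10.5, where all genes had 0.05. It was -1.29 for E11.5 against E10.5, where all genes had -0.18. For E12.5 against E11.5 it was 0.71, where all genes had 0.28. Both comparisons with E11.5 share its lists, so their opposite signs do not count separately.

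The microRNA genes of the clusters and 2 of their long non-coding genes were mostly free of regions. Of 6 microRNA genes, Mir196a-2 was overlapped by 1 region of 1 list, E12.5 sample 1, and Mir10a, Mir10b, Mir196a-1, Mir196b and Mir615 by 0. The long non-coding genes Hotair and Hottip, of the Hoxc and Hoxa clusters, were overlapped by 0 regions.

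The genes that flank the clusters or work with Hox proteins changed little by the gene test. Of the 12 flanking genes 9 were tested and 0 passed in any comparison (limma, adjusted), with 1 at an unadjusted p under 0.05 for E12.5 against E10.5 and 0 in the others. Of the 8 without a homeobox whose start is known, Hibadh and Calcoco1 had a peak within 1 kb of the start in 8 lists, Skap2 in 7, Lnpk in 5, Smug1 in 2, Snx10 and Mtx2 in 1 and Ttll6 in 0. Evx1 and Evx2, homeobox genes at the posterior ends of Hoxa and Hoxd, had 0 lists with a peak within 1 kb of the start. Of the 9 TALE cofactors, which bind DNA with Hox proteins, 7 were tested, and Meis1 alone passed. Meis1 had 0, 2 and 1 regions called at E12.5 and 0, 7 and 7 at E11.5, a residual difference of -3.05 ± 0.865 (SE, limma, adjusted p = 0.0278), and the call ended when the list of E11.5 sample 2 or of sample 3, or that of E12.5 sample 1 or 2, was left out, with adjusted p-values of 0.365, 0.0745, 0.102 and 0.0883 in limma. Of the 17 Polycomb and Trithorax genes 9 were tested, and Eed, a subunit of Polycomb repressive complex 2, alone passed. It had 0, 1 and 1 regions called at E12.5 and 1, 5 and 2 at E11.5, a residual difference of -3.18 ± 0.875 (SE, limma, adjusted p = 0.0226), and without E12.5 sample 2 the adjusted p of limma was 0.0969. All 5 of its regions were called in the list of E11.5 sample 2, so that it met the 5-region minimum through a list in which it was high, and it could not be tested without that list or without that of E12.5 sample 1. Of 13 upstream regulators, among them the Cdx genes and the enzymes and receptors of retinoic acid, 8 were tested and 0 passed in any comparison, with 2 at an unadjusted p under 0.05 for E11.5 against E10.5 and 2 for E12.5 against E11.5. The background shares of calls are those given with the gene test above.

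Markers of the labelled tissue were open at the start in part. Twist1, a regulator of cranial mesenchyme, had a peak within 1 kb of its start in 8 lists, Col1a2 in 5, Msx1 in 4, Prrx1 in 2 and Pdgfra in 0, and of the first arch genes Dlx1 had one in 8 lists and Dlx2 in 7. Regions of 8 mesenchyme markers gave 10 to 13 calls per list at E10.5, then 1 to 25 at E11.5, then 13 to 29 at E12.5. Regions of 6 neural markers gave 7 to 10 calls at E10.5, then 0 to 23 at E11.5, then 9 to 22 at E12.5, and those of 5 ectoderm markers gave 1 to 3, 2 to 8 and 3 to 13. Regions of 4 endothelial markers gave 4 to 7, 0 to 14 and 7 to 27 calls in the same order of stages, those of 4 blood markers 0 to 1, 0 to 5 and 2 to 7, and those of 3 muscle markers 1 to 3, 0 to 8 and 4 to 20. By limma, 2 genes of these 6 marker lists passed, both for E12.5 against E11.5: Col1a2 with fewer calls (adjusted p = 0.0220) and Pax7, a muscle progenitor factor, with more (adjusted p = 0.0200). All 7 Col1a2 regions were called in the list of E11.5 sample 2, and the gene could not be tested without it. In limma the Col1a2 call ended without E12.5 sample 1, 2 or 3 (adjusted p = 0.0563, 0.137 and 0.0612), and the Pax7 call when the list of E11.5 sample 2 or of sample 3, or that of E12.5 sample 1, was left out (adjusted p = 0.274, 0.0516 and 0.107). Pax7 held 29 regions, with 11, 15 and 3 called in the E12.5 lists and 0, 0 and 5 at E11.5. With only regions called by 2 to 8 lists it kept 7 and did not pass (limma, adjusted p = 0.0657). The part of other cell types in the Hox calls was not tested. Of the 5 neural markers with a known start, Sox2, a neural progenitor factor, had a peak there in 8 lists, the same number as Twist1. The other neural markers had one in fewer lists, Tubb3 and Neurog1 in 3, Elavl3 in 2 and Pax6 in 0. Among the remaining markers with a known start, the endothelial Kdr had one in 7 lists and the blood gene Klf1 in 5. Tie1, Gata1, Epcam and Krt8 had one in 1 list, and Ptprc, Krt14, Myf5 and Pax7 in 0.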

How the data were processed

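ATAC-seq peak lists of 9 samples were used, 3 from each of the stages E10.5, E11.5 and E12.5, each shared by the library runs of 1 sample per the labels. Per the submitters' processing notes, Bowtie2, MACS2, deepTools 3.3.1 and the mm10 build were used, and per the labels peaks were called on paired-end alignments and cleared of blacklisted places. The MACS2 threshold and any shift of reads for the transposase are not stated in these sources. For each peak the deposited lists give the authors' fold enrichment (a ratio), −log10 p-value and −log10 q-value, with a summit offset in bases. The lowest deposited −log10 q was 1.30. These values were used only within a list.

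Peaks on the 19 autosomes and X were merged into regions, and each was assigned to the nearest of 21631 protein-coding genes (RefSeq, GRCm38.p6), ties going to the gene with the boundary nearest the region's midpoint. Starts came from the RefSeq promoter table, or for Hox genes not in it from the gene boundary on the cluster's strand. Expected calls came from a conditional logit (Rasch) model of list and region. For genes holding at least 5 regions that 1 to 8 lists called, the residuals were fitted with limma 3.58.1 (R 4.3.3), stage as a factor over all 9 lists, two-sided, with Benjamini-Hochberg adjustment at 0.05. The spread is largely pooled over genes (prior degrees of freedom 105.3), and the p-values rest on the spread among samples, which may be technical. The fit was checked on simulated calls. No reads are in the lists, so no counting interval is given. Python 3.11.15, NumPy 2.4.6, pandas 2.3.3 and Matplotlib 3.10.9 were used.

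Members and gene lists were chosen with earlier results of these data known. Named with values per list were Hox genes with a region called by 8 or 9 lists, with an unadjusted p under 0.05, among the 3 of their cluster with the most regions (ties included), or with no region, and regions called by all 3 lists of one stage and none of another. Hoxb1, Hoxc6, Hoxd11, Hoxd13 as a gene, and the other regions called by 4 or more lists were named after their values were seen, as were members of the other gene lists. The alternatives tried were other expected calls, other minimums of regions and lists, a −log10 q of at least 5, lists of equal length (5682 peaks), regions built from summits, assignment by midpoint, the replicate number as a block, a 1 kb window and each list left out. Results for some items are not reported here.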

Additional observations from a re-analysis of the deposited data

How the results depend on the processing

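The Hox count past the gene test stayed at 0 in all 3 comparisons under every alternative that tested a Hox gene, including each list left out (range 0 to 0). The lowest and highest adjusted p of a Hox gene in limma were 0.104 and 0.995 for E11.5 against E10.5, 0.440 and 0.998 for E12.5 against E10.5, and 0.187 and 0.996 for E12.5 against E11.5. No Hox gene had enough regions to be tested at a −log10 q of at least 5, with lists of equal length, with 10 or more regions per gene, or with regions called by 2 to 8 lists. The differences of Hoxb13, Hoxb9 and Hoxb3 kept their direction wherever they were tested. Hoxb13 and Hoxb9 met the minimum of regions only through E10.5 and E12.5 lists, in which they were high. Hoxb3 held only 5 regions and could not be tested without the list of E10.5 sample 1 or 3, or that of E11.5 sample 2.

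At the stricter q the E10.5 share of Hox regions was below that of E12.5, and with lists of equal length they were level. At a −log10 q of at least 5 it was 0.0430% at E10.5, then 0.0101% at E11.5, then 0.0717% at E12.5, and with lists of equal length 0.0788%, 0.00604% and 0.0780%. The E11.5 share remained the lowest of the 3 means in both. In E11.5 sample 1, the list that set the equal length, 1 Hox call was 0.0182%. The shares with lists of equal length thus rest on few Hox calls. Hox promoters under a peak averaged 6.94% at E10.5, then 5.56% at E11.5, then 12.5% at E12.5 with the window of 300 bases. At the stricter q they averaged 1.39%, 2.78% and 0% in the same order. With lists of equal length they averaged 2.78%, 0% and 0%, and within 1 kb of the start 21.4%, 11.1% and 26.5%. A single called promoter of 24 was 4.17% in a list. The means with the window of 300 bases thus rest on few calls, and no order of stages is read from them. Leaving out 1 list gave shares of 0.116% to 0.128% at E10.5, then 0.0254% to 0.0464% at E11.5, then 0.0791% to 0.0973% at E12.5, and promoters at 6.25% to 8.33%, 2.08% to 8.33% and 10.4% to 14.6%.

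Replicate numbers did not pair the samples: over 9 pairs with the same number the correlation of residuals ran from -0.0960 to 0.0158. With the replicate number as a block, 0 Hox genes passed, and the Hoxb13 difference was again -2.94 between E11.5 and E10.5. The depth of the lists is unknown, and a Hox region not called may have missed the peak caller's threshold.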
